A study of Mus with 21 samples.

Results

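Acid-base genes were described in mouse skin wounds: carbonic anhydrases (Car), bicarbonate transporters (Slc4a), sodium-proton exchangers (Slc9a), monocarboxylate transporters (Slc16a) and subunits of the vacuolar proton pump, the V-ATPase (Atp6v). They were chosen by symbol alone, Car3 left out, which gave 70 of the 18806 genes counted. There were 15 Car, 10 Slc4a, 9 Slc9a and 14 Slc16a genes, 13 subunits of the V1 sector of the pump and 9 of its V0 sector.

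RNA came from wounds of female wild-type C57BL/6 mice, 8 weeks old. A round full-thickness wound, 8 mm wide, was punched on the left and the right of the back and sampled on day 4. Wounds of 6 groups were filled with GelMA, a gelatin that carries methacrylate groups and sets to a hydrogel under ultraviolet light. The gels were adjusted to pH 6.4, 7.4 or 8.4 and loaded with acidic or basic fibroblast growth factor (aFGF or bFGF), and the groups are named 6.4/aFGF, 7.4/aFGF, 8.4/aFGF, 6.4/bFGF, 7.4/bFGF and 8.4/bFGF. The control wounds received no hydrogel and no growth factor, so the effects of gel and growth factor against control cannot be told apart. Each group had 3 libraries that the labels call biological replicates, mice were assigned to 1 group each, and whether libraries of a group shared a mouse is not stated. In this design the acid-base genes address the question of whether a gel of altered pH, or its growth factor, goes with altered expression of the genes that move protons.

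Cells export acid by exchanging protons for sodium, by moving bicarbonate across the membrane, or by carrying lactate out together with a proton. Carbonic anhydrases speed the conversion of carbon dioxide and water to bicarbonate and a proton, inside cells or on their surface. The V-ATPase pumps protons into endosomes and lysosomes, and in osteoclasts and some kidney cells also out of the cell: its V1 sector splits ATP in the cytosol and its V0 sector passes the proton through the membrane. Wounds are rich in lactate, and neutrophils and macrophages, which fill them in the first days, depend on glycolysis and on acid lysosomes.

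The total count per library was between 34362558 and 37817833 (median 36771838), so that 0 counts of a gene allow a level of up to 3 counts, or 0.0816 CPM (counts scaled to a common library size), a limit that covers counting error only. Of the 21 libraries, 3 held genes of another tissue: the summed level of 12 cartilage and bone genes was 441 CPM in 7.4/aFGF replicate 3 and at most 10.6 CPM elsewhere, that of 10 ovary and oviduct genes was 1042 CPM in 8.4/bFGF replicate 2 and at most 25.2 CPM elsewhere, and 7 of 12 liver genes were highest in 8.4/aFGF replicate 2, with albumin at 138 CPM there and at most 13.8 CPM elsewhere. The sum of the liver list, made up mostly of Hp and Trf, did not set this library apart (2340 CPM, the median of 1718 to 8255 CPM). Nor did the liver genes Fgb, Fgg and Cyp2e1, at 8.78, 8.06 and 29.2 CPM there and up to 30.8, 26.0 and 758 CPM elsewhere. Keratinocyte genes, which mark skin, were present in every library (10 genes, 3006 to 8061 CPM in sum). Control replicate 2 stood apart from the other 2 controls: its 8 neutrophil genes summed to 8557 CPM against 1384 and 757 CPM in replicates 1 and 3, and its 8 adipocyte genes to 675 CPM against 8474 and 4798 CPM. Results against control are therefore given with and without it.

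Among the 70 genes, which leave out Car3, the V-ATPase dominated. Levels are compared between genes in FPKM, in which fragments are scaled to the length of the transcript and to the size of the library. Of the 70 genes, 44 had a mean FPKM of at least 1 over the 21 libraries: all 9 V0 and 11 of the 13 V1 genes, but 7 of 15 Car, 8 of 14 Slc16a, 5 of 10 Slc4a and 4 of 9 Slc9a genes. The summed FPKM of the V0 genes was 509 to 638 and that of the V1 genes 502 to 626, against 53.0 to 164 for the carbonic anhydrases, 70.1 to 281 for Slc16a, 20.7 to 27.8 for Slc4a and 30.6 to 46.7 for Slc9a. The pump families and Slc4a thus kept within a narrow range over the libraries, and the carbonic anhydrases and Slc16a genes did not.

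**Figure D1:**
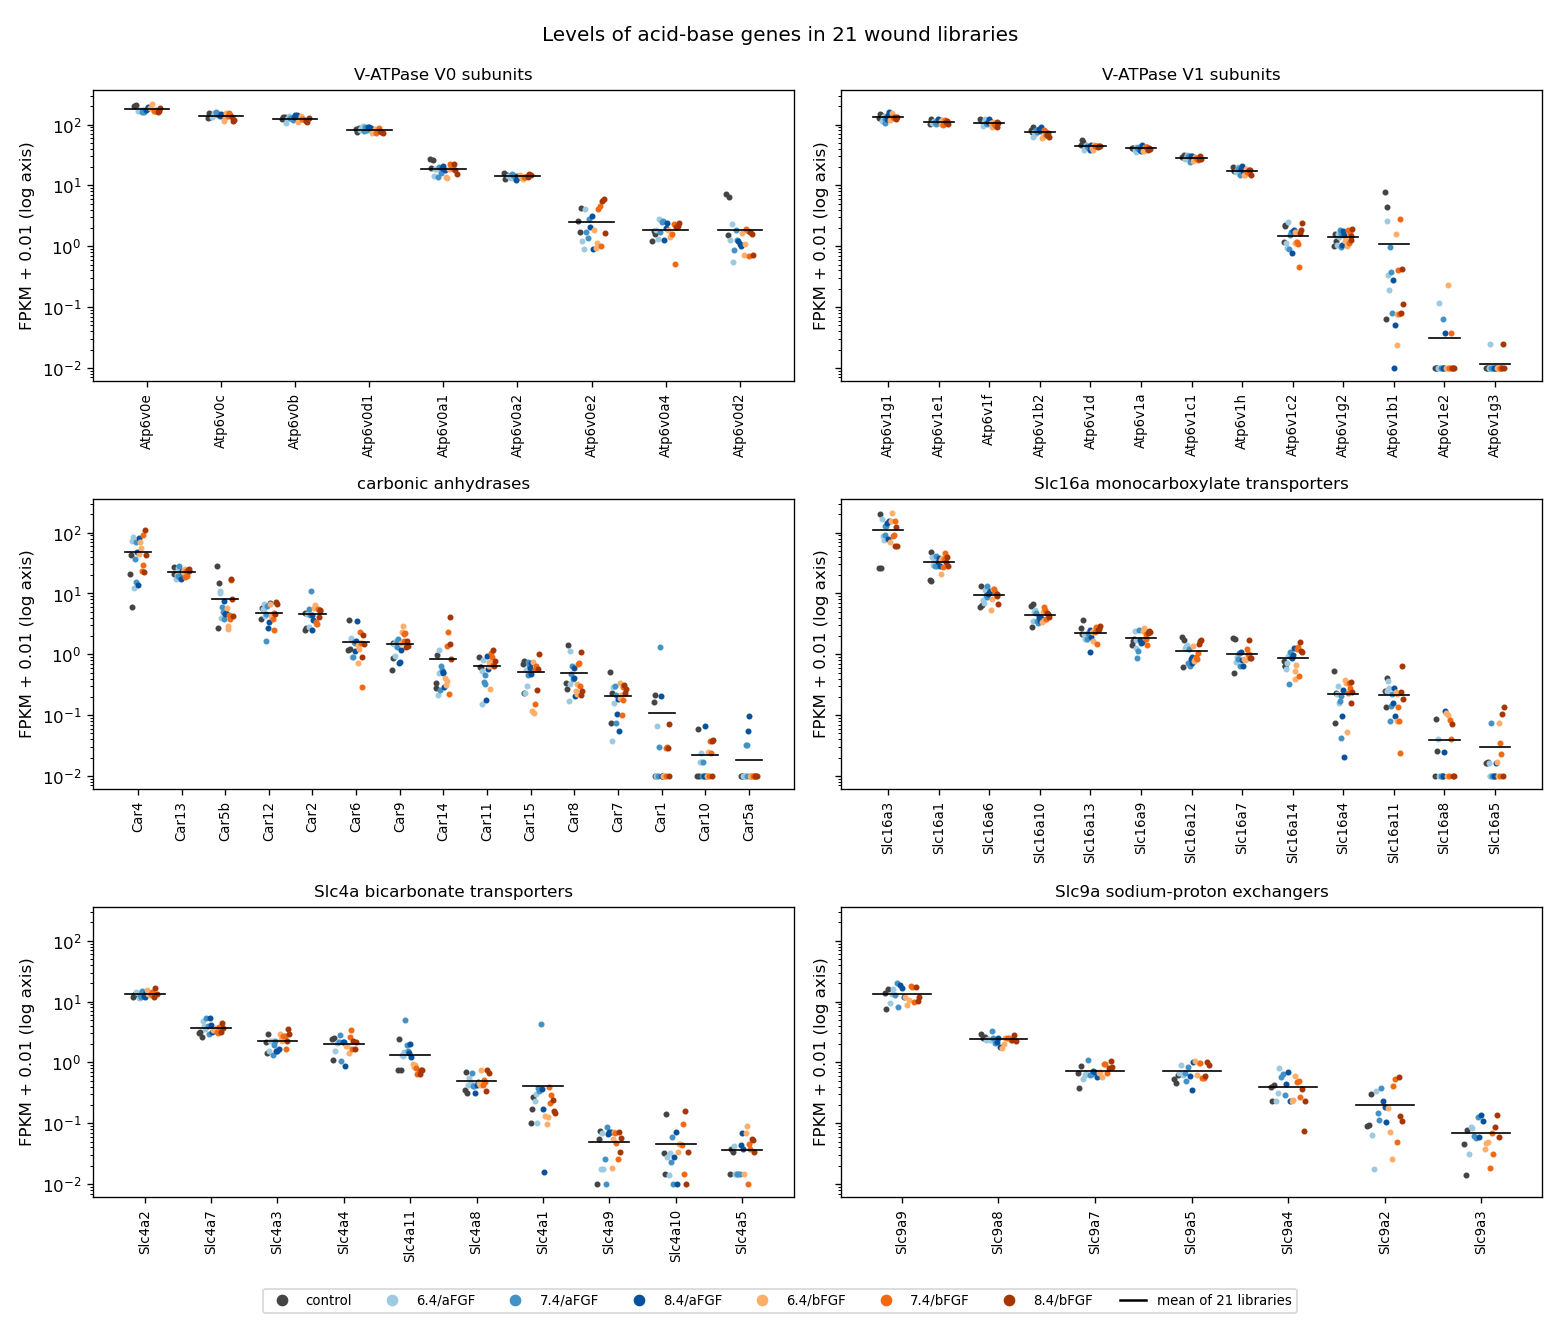
FPKM plus 0.01 (log axis) of acid-base genes in each of the 21 libraries, in 6 families ordered by mean level, with colours for the 7 groups and a bar at the mean. The V0 and V1 genes with a mean FPKM of at least 10 lie in tight columns, whereas Car4, Atp6v1b1 and Car5b spread widely and Slc4a1 has 1 point far above the rest.

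Among V0 subunits the highest mean FPKM was that of Atp6v0e (180), followed by Atp6v0c (140), which forms the proton-carrying ring, Atp6v0b (126), Atp6v0d1 (82.4) and Atp6v0a1 (18.9). Atp6v0c has 2 annotated pseudogenes, Atp6v0c-ps1 and Atp6v0c-ps2, that could share its reads, so its level is uncertain. Among V1 subunits the order was Atp6v1g1 (132), Atp6v1e1 (111), Atp6v1f (107), Atp6v1b2 (74.8) and Atp6v1d (44.1). These genes differed little between libraries: the highest library of Atp6v1b2 had 1.54 times the CPM of the lowest, and that of Atp6v0d1 1.47 times.

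Where the pump has alternative subunits, the widely expressed form prevailed. Atp6v1b2 made up 91.4 to 100% (median 99.7%) of the summed FPKM of the B subunits, Atp6v1c1 91.9 to 98.3% of the C subunits, Atp6v1g1 98.3 to 99.4% of the G subunits and Atp6v0d1 92.3 to 99.4% of the d subunits. The alternatives Atp6v1b1, known from acid-secreting kidney cells, and Atp6v0d2, known from osteoclasts and macrophages, reached 8.64% and 7.75%, both in control replicate 1. The a subunits were mixed. With Tcirg1, the a3 subunit of osteoclasts and of lysosomes in immune cells, counted among them, Tcirg1 held 40.8 to 57.6%, Atp6v0a1 18.8 to 36.4%, Atp6v0a2 17.2 to 25% and Atp6v0a4, another kidney form, 0.783 to 4.38%.

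Lactate transport rested on a pair of genes. Slc16a3, the exporter MCT4 of glycolytic cells, had a mean FPKM of 111 and held 36.3 to 76.0% of the summed FPKM of the Slc16a genes. Slc16a1 (MCT1) came next at 32.9, followed by Slc16a6 at 9.40 and, among others, the aromatic amino acid transporter Slc16a10 at 4.44. With Car3 left out, the leading carbonic anhydrase was Car4, which is anchored on the cell surface, at 47.7. It was followed by the cytosolic Car13 at 22.4, the mitochondrial Car5b at 8.03, the transmembrane Car12 at 4.85 and the cytosolic Car2 at 4.58. Car9, a surface enzyme known as a target of the hypoxia response, had a mean FPKM of 1.49.

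The bicarbonate transporters were led by the anion exchanger Slc4a2 (mean FPKM 13.4), followed by the sodium-bicarbonate carrier Slc4a7 (3.69), the anion exchanger Slc4a3 (2.20), the sodium-bicarbonate carrier Slc4a4 (1.99) and Slc4a11 (1.33). The sodium-proton exchangers included the endosomal form Slc9a9 (13.4), the Golgi form Slc9a8 (2.40) and Slc9a7 (0.718). The widest of the genes with a mean FPKM of at least 10 was Car4, at 9.12 to 161 CPM (median 69.4), a 17.6-fold range. It also varied within groups: 6.4/aFGF held 124, 138 and 20.6 CPM, and 8.4/bFGF 35.5, 161 and 67.3 CPM.

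Of the 70 genes, 64 passed the filter on low counts over the 21 libraries and were tested with the edgeR quasi-likelihood test. The other 6 (Atp6v1e2, Atp6v1g3, Car10, Car5a, Slc16a8 and Slc4a9) had a mean FPKM under 0.1. A call required a p under 0.05 after Benjamini-Hochberg adjustment over all genes tested and, in comparisons of 2 sides, a log2 fold change beyond 0.58. Asked whether any of the 7 groups differed, edgeR called 0 of the 64 genes, where it called 0.114% of all genes. An unadjusted p under 0.05 was reached by 10 of them, against 19.3% of all genes. The smallest adjusted p, 0.106, belonged to Atp6v1b2, and Slc4a11, Slc4a1 and Atp6v0d2 followed at 0.111, 0.116 and 0.125. With DESeq2, run without this filter, 8 of 70 members were called (among them Atp6v1b2, Slc4a1, Slc4a11, Atp6v0d2, Car9, Atp6v0e and Car14), where DESeq2 called 10.8% of all 18806 genes. Limma on FPKM, run on the genes with a mean FPKM of at least 1, called 0 of 44, where it called 15 of all 12242 genes. Without control replicate 2, edgeR called 4 (Slc4a11, Atp6v0d2, Car9 and Atp6v1b2) against 5.38% of all genes.

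With edgeR and all libraries, the growth factor gave the only call of a member in the 9 comparisons. Slc4a11, an unusual member of its family that carries protons and ammonia rather than bicarbonate and is best known from the cornea, was higher with aFGF than with bFGF at each pH. At pH 6.4 it was at 4.48, 4.11 and 5.08 CPM with aFGF and at 3.03, 2.92 and 3.06 CPM with bFGF. At pH 7.4 the values were 16.95, 6.39 and 5.17 CPM with aFGF against 2.58, 2.08 and 2.40 CPM with bFGF. At pH 8.4 they were 5.14, 6.73 and 4.05 CPM against 2.11, 2.27 and 2.41 CPM. The lowest of the 9 aFGF libraries was above the highest of the 9 bFGF libraries, which was so for 0.304% of all genes tested, and 7.4/aFGF replicate 1 was far above the rest. In the control wounds Slc4a11 was at 2.40, 8.72 and 2.32 CPM, so that controls 1 and 3 lay among the bFGF libraries and control 2 above all aFGF libraries but 1.

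The log2 fold change of Slc4a11, aFGF against bFGF over all pH, was 1.30 (SE 0.267, n = 9 and 9 libraries, edgeR adjusted p = 0.0104). It was called in each of 29 alternatives of tool, filter, normalization and libraries, with adjusted p between 0.000145 and 0.0255. Without 7.4/aFGF replicate 1 the log2 fold change was 1.05 and without the 3 libraries with genes of another tissue 1.33. It was the only member called of 64, where 3.2% of all genes were called, 1.46% higher and 1.74% lower with aFGF. Liver genes moved in the same comparison: 7 of the 12, those highest in 8.4/aFGF replicate 2, were called higher with aFGF (median log2 fold change of the 12 2.69). Without that library 2 of the 12 liver genes were called (median 1.88), and without the 3 libraries 4 were (median 2.55). Their summed level was 1992 to 5512 CPM with aFGF and 1718 to 8255 CPM with bFGF, and their part in the level of Slc4a11 was not tested. Since tissue was sequenced in bulk, more cells of a type that expresses it and more RNA per cell cannot be told apart, here and in the results below.

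An adjusted p under 0.05 at any fold was reached by 5 members, where 10.8% of all genes reached it, and all but Slc4a11 had a smaller fold change. The anion exchanger Slc4a3 had a lower level with aFGF, at 7.09 to 12.0 CPM (median 8.72) against 9.12 to 16.8 CPM (median 13.7), a log2 fold change of -0.48 (SE 0.133, edgeR adjusted p = 0.0321). The pump subunits Atp6v1b2 and Atp6v0d1 went the other way. Atp6v1b2 was at 179 to 250 CPM (median 217) with aFGF and 163 to 214 CPM (median 177) with bFGF, a log2 fold change of 0.22 (SE 0.0571, edgeR adjusted p = 0.0259). Atp6v0d1 was at 133 to 166 CPM (median 146) and 113 to 150 CPM (median 125), a log2 fold change of 0.23 (SE 0.0649, edgeR adjusted p = 0.0322). The ranges of the 9 libraries overlapped for each of these 3 genes. Both pump subunits differed most at pH 8.4, where mean Atp6v1b2 was 239 CPM with aFGF and 174 CPM with bFGF. It was 218.6 and 206.4 CPM at pH 7.4, and 192.5 and 182.6 CPM at pH 6.4. Mean Atp6v0d1 was 155 and 118 CPM at pH 8.4, 138 and 130 CPM at pH 7.4, and 148 and 130 CPM at pH 6.4. Over the 29 alternatives the adjusted p stayed under 0.05 in 22 for Atp6v1b2, 17 for Atp6v0d1 and 17 for Slc4a3.

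**Figure D2:**
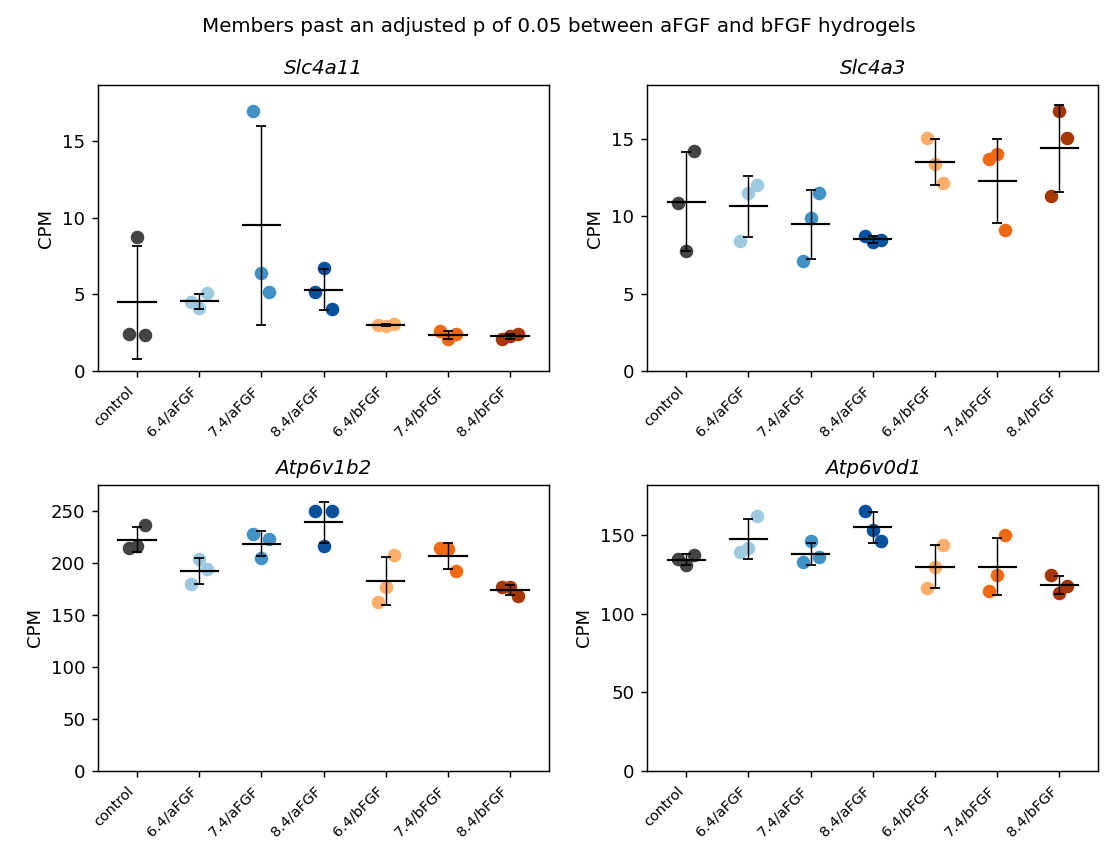
CPM of Slc4a11, Slc4a3, Atp6v1b2 and Atp6v0d1 in the 7 groups. Points are libraries, bars the mean and SD of 3 libraries, and the axes start at 0. The aFGF libraries of Slc4a11 (4.05 to 16.95 CPM) lie above its bFGF libraries (2.08 to 3.06 CPM), and the ranges of the other 3 genes overlap.

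Pooled over pH, the other V-ATPase subunits also had higher values with aFGF under most settings, by small amounts and without passing the call. Of the 20 subunits tested, 18 had a positive log2 fold change, where 49.7% of all genes tested had one. The 2 others were Atp6v0e2 and Atp6v1b1, both of low level. For the 14 subunits with a mean FPKM of at least 10 the log2 fold changes were 0.00836 to 0.233 (median 0.109), and 6 of them had an unadjusted p under 0.05, against 28.0% of all genes. With RLE normalization in edgeR 17 of the 20 subunits and all of the 14 were positive. In limma on FPKM, which differs in tool, gene filter and scaling together, 12 of 20 subunits and 9 of the 14 were. There, 5102 of all 12242 genes were positive with a pseudocount of 0.1, and 5087 with a pseudocount of 1. All of the 14 were positive in 14 of the 29 alternatives, and at least 9 were in each. Outside limma, the negative ones were Atp6v0a1, Atp6v0e or both, mostly with 1 library left out. The direction was not the same at each pH for every subunit. Mean Atp6v0e was 139, 134 and 149 CPM with aFGF at pH 6.4, 7.4 and 8.4, and 159, 136 and 129 CPM with bFGF. Mean Atp6v0a1 was 94.6, 90.2 and 109 CPM with aFGF and 84.4, 114 and 96.0 CPM with bFGF. Of the 14, 13 were lower in 8.4/bFGF than in 7.4/bFGF (median -0.0632), and 11 were higher in 8.4/aFGF than in 7.4/aFGF (median 0.161). The cause was not tested. The macrophage genes had summed levels of 6417 to 10820 CPM (median 9466) with aFGF and 5333 to 9103 CPM (median 8178) with bFGF, and their part in the values of the pump was not tested.

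**Figure D3:**
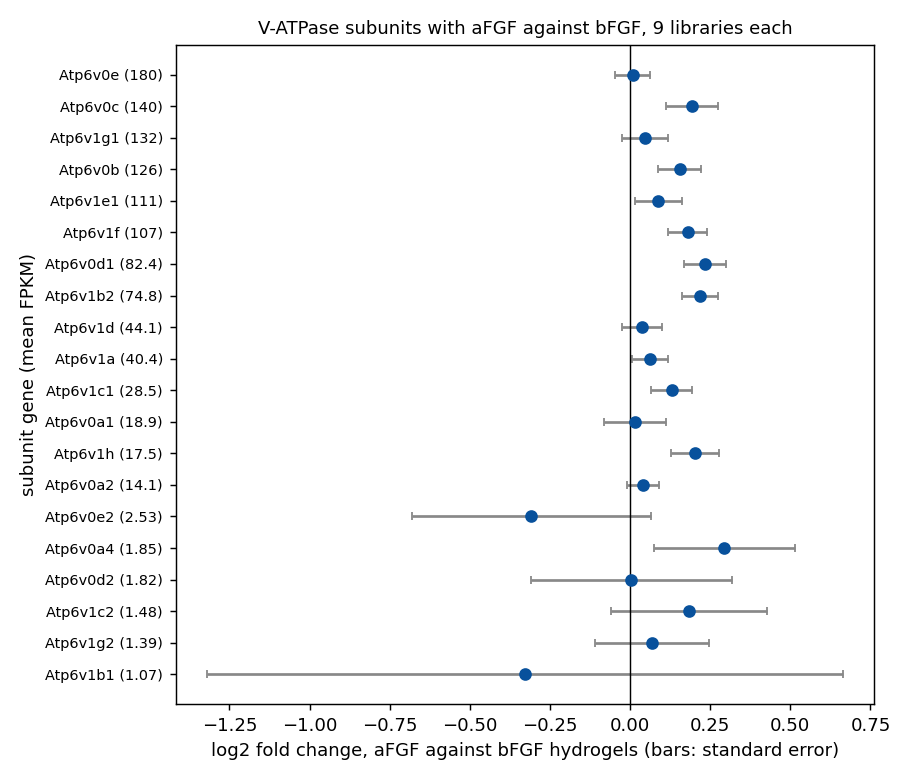
log2 fold change of the 20 tested V-ATPase subunits, aFGF against bFGF hydrogels (9 libraries each), with standard errors, ordered from the highest mean FPKM (180) at the top to the lowest (1.07) at the bottom. The 14 most abundant subunits lie between 0.00836 and 0.233, and the scarce Atp6v1b1 has the widest error.

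Against control, with all 3 control libraries, edgeR called 0 of 64 members, where it called 0.00632% of all genes. An adjusted p under 0.05 at any fold was reached by 0 members, against 0.0126% of all genes. An unadjusted p under 0.05 was reached by 9 members, against 16.7% of all genes. Of the 64, 28 had higher and 36 lower values in the hydrogel wounds, and their median log2 fold change was -0.05, beside -0.02 over all genes. DESeq2 called Atp6v0d2 alone of 70 members, lower in the hydrogel wounds (adjusted p = 0.00193), where it called 0.909% of all genes, 0.351% higher and 0.558% lower. Limma on FPKM called 0 of 44, where it called 1 of all 12242 genes.

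The lowest p-value belonged to Atp6v0d2, a pump subunit of specialised cells. It was at 27.9, 6.70 and 24.3 CPM in the controls and at 2.28 to 9.29 CPM (median 5.17) in the 18 hydrogel libraries. Controls 1 and 3 were above every hydrogel library and control 2 was among them. The log2 fold change was -1.93 (SE 0.357, edgeR adjusted p = 0.0612). Atp6v1b1, another such subunit, was at 14.6, 0.115 and 8.20 CPM in the controls and at 0 to 5.86 CPM in the hydrogel libraries, with a log2 fold change of -3.17 (SE 1.01, edgeR adjusted p = 0.172), and again control 2 lay low. The 10 genes of osteoclasts, the cells for which Atp6v0d2 is best known, summed to 735, 1048 and 736 CPM in the controls. In the hydrogel wounds they summed to 692 to 1202 CPM. Adipocyte genes summed to 8474 and 4798 CPM in controls 1 and 3, to 675 CPM in control 2 and to 295 to 5527 CPM in the hydrogel wounds. The part of osteoclasts or adipocytes in these results was not tested.

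Of the other members with a low p, Atp6v0a1 was at 144, 111 and 134 CPM in the controls and 72.6 to 119 CPM in the hydrogel wounds (log2 fold change -0.42, edgeR adjusted p = 0.160). Atp6v1d was at 69.7, 91.6 and 75.9 CPM and 60.6 to 74.1 CPM (-0.26, adjusted p = 0.167), with the highest value in control 2. Without control replicate 2 the log2 fold changes were -0.52 (adjusted p = 0.0308) and -0.15 (adjusted p = 0.284), so that Atp6v0a1 passed the p but not the fold of a call.

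The control libraries also disagreed for the lactate transporters. Slc16a3 was at 86.8, 738 and 83.5 CPM in the controls and at 200 to 752 CPM (median 350) in the hydrogel wounds. Controls 1 and 3 were below every hydrogel library, and control 2 was above all of them but 1. Slc16a1 was at 70.5, 229 and 66.3 CPM against 90.0 to 217 CPM, with controls 1 and 3 below and control 2 above all hydrogel libraries. The log2 fold changes were 0.38 (SE 0.528, edgeR adjusted p = 0.745) and 0.30 (SE 0.303, adjusted p = 0.636). The surface enzyme Car9 was at 1.14, 3.63 and 1.81 CPM in the controls and 1.66 to 6.52 CPM in the hydrogel wounds, and Car4 at 32.2, 74.5 and 9.12 CPM against 20.6 to 161 CPM. Their log2 fold changes were 0.60 (edgeR adjusted p = 0.309) and 1.12 (adjusted p = 0.443). That of Car4 was 2.01 without control replicate 2 (adjusted p = 0.150) and 0.65 without control replicate 3.

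**Figure D4:**
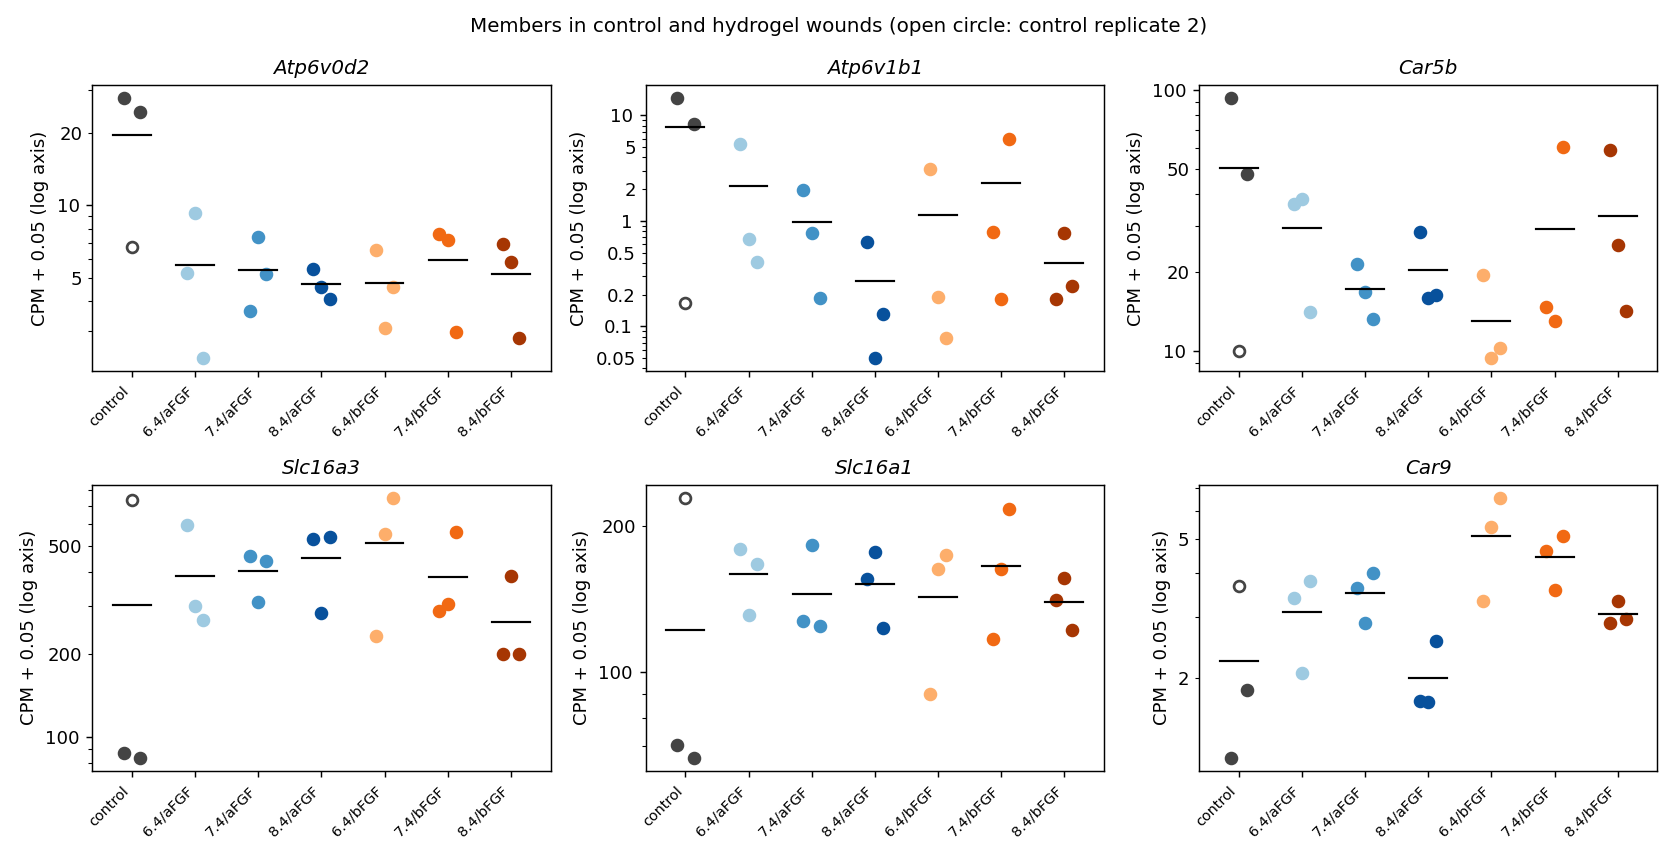
CPM plus 0.05 (log axis) of 6 genes in the 7 groups, with a bar at the mean of 3 libraries and control replicate 2 as an open circle. Controls 1 and 3 are above all hydrogel libraries in Atp6v0d2 and Atp6v1b1 and below all of them in Slc16a3 and Slc16a1, and in these 4 genes control 2 does not lie with them.

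The remaining members fixed for their tissue or hypoxia pattern were not called either. The log2 fold change against control was 0.47 for Car2 (edgeR adjusted p = 0.463), -0.07 for Car12 (0.926), 0.10 for Slc4a2 (0.606), 0.01 for Slc4a4 (0.991), 0.40 for Slc4a7 (0.295), 0.31 for Atp6v0a4 (0.624) and 0.63 for Slc4a1 (0.705), with adjusted p in parentheses. Without control replicate 2 that of Car2 was 0.90 (adjusted p = 0.110). The directions of Car12 and Slc4a4 were not stable over the alternatives.

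Without control replicate 2, 8 of the 64 members were called, where edgeR called 7.4% of all genes, 3.62% higher and 3.78% lower in the hydrogel wounds. This library was singled out with its values in view, and the fit compares 18 libraries with 2. Both lactate transporters were higher, Slc16a3 by a log2 fold change of 2.19 (edgeR adjusted p = 0.0138) and Slc16a1 by 1.12 (adjusted p = 0.0175), and so was Car9 by 1.16 (adjusted p = 0.0277). Lower were Atp6v0d2 (-2.34, adjusted p = 0.00348), Atp6v1b1 (-3.75, adjusted p = 0.0293), the mitochondrial carbonic anhydrase Car5b (-1.65, adjusted p = 0.0390), Slc16a7 (-0.90, adjusted p = 0.0219), a lactate and pyruvate carrier of high affinity, and the creatine transporter Slc16a12 (-0.71, adjusted p = 0.0371). In Car5b, Slc16a7 and Slc16a12, controls 1 and 3 held 93.2 and 47.5, 21.2 and 20.4, and 8.15 and 7.09 CPM, while control 2 held 9.93, 6.24 and 2.85 CPM.

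Controls 1 and 3 lay below all 18 hydrogel libraries in 4 members (Car2, Slc16a1, Slc16a3 and Slc4a7), against 6.96% of all genes, and above all of them in 5 (Atp6v0a1, Atp6v0d2, Atp6v1b1, Slc16a10 and Slc16a7), against 4.72% of all genes. With the 3 controls together, none of the 64 was without overlap, where 0.354% of all genes were above control and 0.228% below. In the controls, the neutrophil genes differed in the same direction as the 2 lactate transporters Slc16a3 and Slc16a1. The sum of the neutrophil genes was 1384 and 757 CPM in controls 1 and 3, below the 3212 to 13530 CPM of the hydrogel wounds, and 8557 CPM in control 2. Their part in the difference was not tested.

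**Figure D5:**
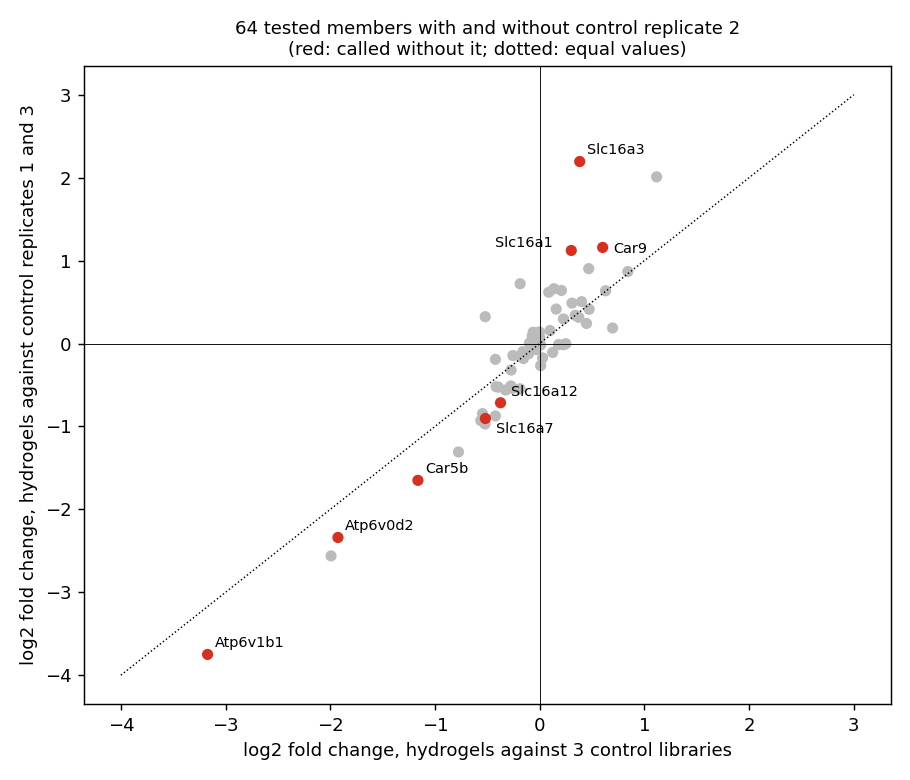
log2 fold change of the 64 tested members, hydrogels against 3 controls (horizontal) and against control replicates 1 and 3 (vertical), with equal values on the dotted line. The 8 members called without control replicate 2 are red; Slc16a3 moves most among them, from 0.38 to 2.19.

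Between the acidic and the alkaline gels, pH 6.4 against 8.4 over both growth factors, edgeR called 0 of 64 members and 0.0% of all genes. DESeq2 and limma called 0 members too, where they called 1 and 0 of all genes. With edgeR 2 members had an unadjusted p under 0.05, against 4.21% of all genes. They were the orphan transporter Slc16a14 and Car9. Car9 was at 3.35, 2.02 and 3.75 CPM in 6.4/aFGF and 3.28, 5.36 and 6.52 CPM in 6.4/bFGF, against 1.67, 1.66 and 2.51 CPM in 8.4/aFGF and 2.82, 3.28 and 2.91 CPM in 8.4/bFGF. The ranges overlapped with aFGF and touched with bFGF, and the pooled log2 fold change was 0.70 (SE 0.257, edgeR adjusted p = 1.00). Slc16a14 went the other way, at 2.34 to 5.50 CPM with pH 6.4 and 5.56 to 9.05 CPM with pH 8.4, a log2 fold change of -0.84 (SE 0.275, edgeR adjusted p = 1.00). In CPM its 6 libraries of pH 6.4 all lay below its 6 of pH 8.4, as in 0.0506% of all genes tested. The margin was narrow, from 5.50 CPM in 6.4/aFGF replicate 3 to 5.56 CPM in 8.4/aFGF replicate 1. In FPKM these libraries were at 0.917 and 0.872, so that the ranges overlapped. The other way, 0 members were without overlap in CPM, against 0.0885% of all genes. The next were Atp6v1b1 (2.44, SE 1.28) and Atp6v0e2 (-0.84, SE 0.458), each with an edgeR adjusted p of 1.00. Single libraries moved both: Atp6v1b1 was at 0.62 without 6.4/bFGF replicate 1, and Atp6v0e2 at -1.32 without 6.4/aFGF replicate 3.

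The difference between pH 6.4 and 8.4 was not found to depend on the growth factor for any member. With DESeq2 and limma the interaction called 0 members, where they called 7 and 0 of all genes. With edgeR the interaction called 0 of 64 members and 0.0% of all genes. An unadjusted p under 0.05 was reached by 5 members, against 6.68% of all genes. Of the 14 V-ATPase subunits with a mean FPKM of at least 10, 13 had a negative interaction. For these, aFGF relative to bFGF was lower at pH 6.4 than at pH 8.4. The median of the 14 was -0.206, beside 0.0162 over all genes. Atp6v0e (-0.41), Slc16a12 (1.31), Atp6v1b2 (-0.38) and Car14 (2.98, SE 1.08) had the smallest p, with an edgeR adjusted p of 0.731 each.

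Single gels were compared with pH 7.4 within a growth factor, over 3 and 3 libraries. With aFGF, edgeR called 0 of 60 members and 0.0% of all genes at pH 6.4 and again at pH 8.4, with 1 member at an unadjusted p under 0.05 in each, against 4.99% and 3.01% of all genes. With bFGF, 0 of 58 were called at pH 6.4 and 0 of 60 at pH 8.4, with 0.0% of all genes in both, and 5 and 7 members had an unadjusted p under 0.05, against 8.89% and 5.72% of all genes. DESeq2 and limma called 0 members in each of the 4 comparisons. Over all genes limma called 0 in each, and DESeq2 called 20 and 11 with aFGF and 113 and 27 with bFGF, at pH 6.4 and 8.4. Without 7.4/bFGF replicate 3, edgeR called Car14 lower at 6.4/bFGF than at 7.4/bFGF (log2 fold change -2.28, adjusted p = 0.0488), where 1.83% of all genes were called. Skeletal muscle genes differed the same way, with summed levels of 13460 and 14220 CPM in 7.4/bFGF replicates 1 and 2 and 1809 to 2662 CPM in 6.4/bFGF, and with 260 CPM in the library left out. Their part in the level of Car14 was not tested.

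With bFGF low p-values belonged to the red cell anion exchanger Slc4a1 (-1.39), the inactive carbonic anhydrase relative Car8 (-1.08) and Atp6v0a1 (-0.42) at pH 6.4, with edgeR adjusted p from 0.542 to 0.549. At pH 8.4 they belonged to Slc16a12 (0.73), Atp6v1c2 (1.08), Slc16a6 (-0.39) and Car12 (0.70), with an edgeR adjusted p of 0.861. With aFGF at pH 8.4 they belonged to Car9 (-0.83), Car2 (-0.94), Slc4a1 (-3.17) and Atp6v0b (0.20), each with an edgeR adjusted p of 1.00. At pH 6.4 they belonged to Slc4a1 (-3.01), Slc4a11 (-1.05), Slc16a12 (0.63) and Car2 (-0.79), with an edgeR adjusted p of 0.832. Without 7.4/aFGF replicate 1 the value of Slc4a11 was -0.33. Red cell genes differed the same way as Slc4a1 with bFGF, with summed levels of 473 to 517 CPM in 6.4/bFGF and 918 to 1701 CPM in 7.4/bFGF. The median log2 fold change of the 10 tested was -1.32. Their part in the level of Slc4a1 was not tested.

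The values of Slc4a1 and Car2 in 7.4/aFGF rested on 1 library. Slc4a1 was at 1.71, 1.51 and 19.2 CPM in 7.4/aFGF, and the highest of the other 20 libraries held 1.73 CPM. It was the only member whose highest library exceeded the next more than 8-fold. That library, 7.4/aFGF replicate 3, also held the highest level of the red cell enzyme Car1, at 1.81 CPM against at most 0.304 CPM elsewhere, and of Car2, at 21.5 CPM against 4.70 to 13.4 CPM. Car13, a neighbour of both on the chromosome, was at 43.1 CPM there, within the 41.3 to 67.4 CPM of the 21 libraries.

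The same library was the one with cartilage and bone genes at 441 CPM. Its red cell genes other than the globins were not high: the 9 genes summed to 39.4 to 57.0 CPM in the 3 libraries of 7.4/aFGF and to 20.2 to 89.0 CPM over all libraries. The part of these tissues in the level of Slc4a1 was not tested. Without this library the log2 fold change of Slc4a1 was -0.81 (SE 0.561) for 6.4/aFGF and -0.95 (SE 1.16) for 8.4/aFGF, each against 7.4/aFGF, and that of Car2 was -0.32 and -0.46.

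Of 56 other gene symbols of pH handling, some of them older and newer names of the same gene, 53 were in the files and 48 were tested over the 21 libraries. They comprise assembly partners of the V-ATPase, chloride and proton channels of endosomes and lysosomes, and other proton pumps and channels. Chaperones of the lactate transporters, lactate dehydrogenases, other lactate transporters, regulators of the sodium-proton exchangers, Slc26 anion exchangers and a few further genes, Car3 among them, are also included. With edgeR 0 were called in 8 of the 9 comparisons. Between aFGF and bFGF 2 of 48 were called, both higher with aFGF, a share near the 3.2% of all genes called, and 3 had an adjusted p under 0.05 at any fold, against 10.8% of all genes. The membrane linker Ezr, a scaffold of sodium-proton exchangers, was at 133 to 287 CPM (median 178) against 84.4 to 191 CPM (median 111), a log2 fold change of 0.79 (SE 0.223, edgeR adjusted p = 0.0333). The sodium-coupled lactate transporter Slc5a8 was at 2.91 to 5.59 CPM (median 4.21) against 1.80 to 4.19 CPM (median 2.77), a log2 fold change of 0.62 (SE 0.171, adjusted p = 0.0323). The proton channel Hvcn1 of phagocytes was lower with aFGF at a smaller fold change (-0.48, adjusted p = 0.0486). The ranges of the 9 aFGF and 9 bFGF libraries overlapped in each of these 3 genes.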

How the data were processed

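Per library, 1 table of raw counts and 1 of FPKM, both computed by the authors, were deposited. The libraries were made with a stranded mRNA kit, and the aligner, counting tool and strand setting are not given in the sources used here. The submitters' processing notes name build GRCm39. Each deposited FPKM value was the count over the library total and over 1 length that all libraries share (13699 genes checked, spread at most 6.01e-06%). All 70 symbols matched a RefSeq table of GRCm38.p6, used for names and neighbours only. No promoter or protein sequences were analysed here.

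The counts were fitted with edgeR 4.0.16 under R 4.3.3 (TMM, default filter by group, quasi-likelihood test, p adjusted over all genes tested). Comparisons of several groups used all 21 libraries and those of 2 groups their 6. CPM are TMM-scaled. The SE is the log2 fold change divided by the root of F. Alternatives were DESeq2 1.42.0, RLE normalization, limma 3.58.1 on log2 FPKM with a pseudocount of 1 or 0.1 for genes whose mean FPKM reached 1, omission of the count filter, a minimum of 10 counts in each library, a replicate block, no fold threshold, a fit over all libraries, and leaving out libraries. edgeR was tested on simulated counts.

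The members, marker lists and other lists were chosen with earlier results of these data known, so no list was tested. The text names up to 5 members of highest mean FPKM per family, called members and the 4 of smallest p per comparison, members fixed for their tissue or hypoxia pattern, and members high in 1 library. Some members are not reported here. Replicate numbers did not pair the libraries, and other names were chosen after their values were seen.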

Additional observations from a re-analysis of the deposited data

How the results depend on the processing

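Counts of called members were 0 with edgeR in 8 of the 9 comparisons and 1 for aFGF against bFGF. DESeq2 called 8 for any difference among the 7 groups and 1 for hydrogels against control, and without a fold threshold aFGF against bFGF gave 5. With a library left out, the counts were 0 to 4 for any difference and 0 to 8 for hydrogels against control, the highest without control replicate 2 in both, 0 to 1 for 6.4/bFGF against 7.4/bFGF, the highest without 7.4/bFGF replicate 3, and did not change in the remaining 6. Against control, the log2 fold change of Slc4a4 (0.01) was -0.0373 with the replicate block. With a library left out it ran from -0.27 to 0.19, that of Car12 ran from -0.26 to 0.0867 and that of Slc16a3 from -0.0689 to 2.19. The causes were not tested.

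Over all genes, DESeq2 called 2030 for any difference against 18 with edgeR, 171 against 1 for hydrogels against control and 777 against 506 for aFGF against bFGF, where limma on log2(FPKM + 1) called 212. In the order of the text, the other 6 comparisons had 1, 7, 20, 11, 113 and 27 calls with DESeq2 and 0 with edgeR. With a library left out these counts ran from 7 to 864, from 0 to 1189 and from 269 to 714, and 6.4/bFGF against 7.4/bFGF reached 278. Same-numbered libraries of different groups did not deviate together (median correlation of deviations 0.0135 over 63 pairs), and the replicate block changed no count of called members. With a median of 36771838 counts per library, genes under 0.0816 CPM could not be told from 0.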

Other observations

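Several acid-base genes were highest in the libraries that were also richest in the genes of another cell type. For each of the 64 tested members and 12 lists of marker genes, the 6 libraries with the highest level of the member were compared with the 6 of the highest summed level of the list. In 10 of these 768 pairs at least 5 of the 6 libraries were the same, and 8 of them are named here. The mitochondrial carbonic anhydrase Car5b shared 6 with the adipocyte genes. The exchanger Slc9a2 shared 6 with the skeletal muscle genes, and Atp6v0e2, Car14 and Car8 shared 5. The pump subunits Atp6v1c1 and Atp6v1h shared 5 with the macrophage genes, and Atp6v1e1 shared 5 with the neutrophil genes. These are descriptions over 21 libraries, with genes named after their values were seen and with no test. The same overlap was not counted for other genes, so whether the members share libraries with these lists more often than other genes is not known.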
